A study of Mus musculus with 2 samples.

Results

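The keratins described here are 10 genes found by their names. Stress keratins are the 4 genes Krt6a, Krt6b, Krt16 and Krt17, and the other 6 are the periderm, mucosal and simple epithelial keratins Krt4, Krt8, Krt13, Krt18, Krt19 and Krt23. They make up 10 of 22719 measured genes, and 13 of 29096 measured probes. The arrays compared dorsal skin of newborn Sdr9c7-/- (knockout) mice with that of wild type mice, both at postnatal day 0 and on a C57BL/6J background. Each genotype was represented by 1 array, which received Cy3-labelled RNA pooled from the skins of 5 animals. The differences below therefore have no replicate check, and none was tested or given a p-value. SDR9C7, the enzyme the knockout lacks, oxidizes acylceramides of the upper epidermis, a step in building the lipid barrier of skin. The sources used here do not give how the allele was made. The samples are labelled as skin, and the series' design text calls it epidermis. Muscle, fat and fibroblast markers all gave signal well above background, so the RNA is treated as that of whole skin, in which fewer cells of a type and less RNA per cell cannot be told apart.

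Keratins are the intermediate filament proteins of epithelial cells, and every filament is built from pairs of an acidic type I and a basic type II chain. Basal and suprabasal epidermis use the pairs Krt5 with Krt14 and Krt1 with Krt10. Krt6a and Krt6b (type II) with Krt16 and Krt17 (type I) are kept in hair follicles, nails and other appendages, and are switched on in the epidermis between follicles after wounding, in inflammation and when the barrier is broken. Krt8 with Krt18 is the pair of simple epithelia and is found in skin in Merkel cells and in the periderm, the transient outer layer of the embryonic epidermis that is shed before birth. Krt19 marks periderm, Merkel cells and part of the hair follicle, and Krt4 with Krt13 is the pair of the upper layers of oral and oesophageal mucosa. Krt23 is a further type I keratin.

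The probes decide what each value measures, and those of Krt6b, whose probes differ, and of Krt16, Krt4 and Krt23, which lie furthest apart between the arrays, are shown with those of Krt6a and Krt17. All probes are 60 bases long, and the positions are on mm9 as the scanner files give them. The annotation used here is on another build, so no probe was assigned to an exon or UTR. The first line is a whole probe that is named Krt6b but whose listed transcripts are those of both Krt6a and Krt6b. The next lines give the first 30 bases of the probes listed for Krt6b alone and for Krt6a alone. Of the probes of Krt16 and Krt17, 30 bases are given around the letters AATAAA, in capitals, the sequence of the usual polyadenylation signal. Krt4 is shown whole, and Krt23 by its first 30 bases.
Krt6b and Krt6a, chr15:101509450-101509509, minus strand: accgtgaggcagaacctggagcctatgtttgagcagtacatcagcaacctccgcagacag
Krt6b alone, chr15:101506492-101506551, minus strand: cttgtgacaacacagtcattagtcctgtgc
Krt6a alone, chr15:101520862-101520921, minus strand: agcaagaagagctacaggcagtgaattctg
Krt16, chr11:100107408-100107467, minus strand: tggtggtaggctAATAAAgctttttggttg
Krt17, chr11:100117535-100117594, minus strand: ttctgaacactgaAATAAAtgaccatggtg
Krt4, position not given in the scanner files: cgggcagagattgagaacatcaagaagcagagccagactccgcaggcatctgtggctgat
Krt23, chr11:99339393-99339452, minus strand: tccgcgctaatgggtgagtctcgacggaaa
The letters AATAAA occurred on the probe strand of 3 of the 13 keratin probes (23.1%), those of Krt16 and Krt17 and 1 of the 2 of Krt8, and on the probe strand of 12.6% of all 39417 probes. On the opposite strand they occurred in 0 of the 13, and in 4.03% of all probes. These are matches of letters only. No other probe on the array shared a run of 20 bases with any of the 13.

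Signals are given relative to the 75th percentile of each array, so that 1 equals it, and differences are log2 values of knockout minus wild type. A probe's level depends on its own sequence, so levels of different probes are not set against each other. Each of the 13 probes was printed as 1 spot and was well above background on both arrays. Elsewhere on the array, 320 probes had at least 8 usable spots, and the log2 difference varied between spots of the same probe with a median SD of 0.06. Between different probes of a gene the pooled SD was 0.25 over 5176 genes. These values cover spot and probe error and not differences between animals or litters. The median log2 difference over all measured genes was −0.04, with 9789 of the 22719 above 0 and 12930 below. The Sdr9c7 probe read 0.0479 in the knockout and 0.324 in the wild type, which is 6.78-fold lower in the knockout.

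**Figure D1:**
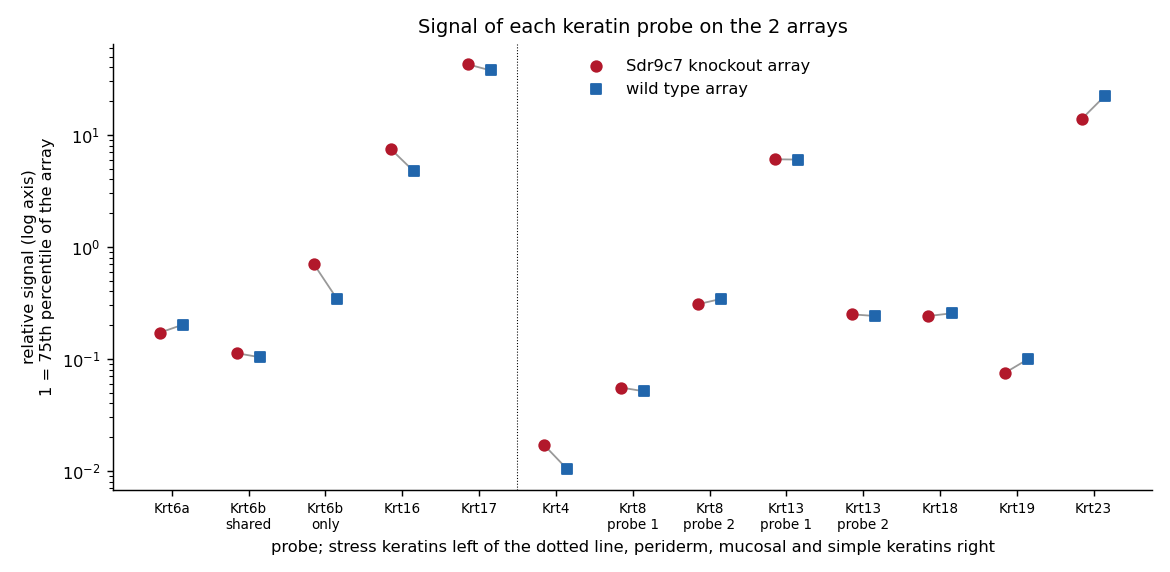
Relative signal of each keratin probe (log axis, 1 = 75th percentile of the array) on the knockout array (circles, left) and the wild type array (squares, right), 1 array each. The Krt6b probe listed for that gene alone stands at 0.702 and 0.344 in knockout and wild type, the probe shared with Krt6a at 0.112 and 0.103. Heights of different probes are not comparable.

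Of the stress keratins, Krt16 and Krt6b were higher in the knockout, Krt17 was slightly higher and Krt6a slightly lower. The 2 probes named Krt6b gave different values, and Krt6b stood below Krt16 by their mean but above it by the probe listed for Krt6b alone. None of the 4 genes was 2-fold apart, against 1.88% of all measured genes at least 2-fold apart either way. Krt16 was the only stress keratin of the 4 at least 1.5-fold higher, against 2.36% of all measured genes. The median log2 difference of the 4 was 0.38, and it lay between 0.19, with the scattering areas of the slide left out, and 0.44 under the 10 alternative settings tried.

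Krt16, a type I keratin of wounded and friction-bearing epidermis, read 7.49 in the knockout and 4.74 in the wild type. This is a 1.58-fold higher signal in the knockout, at a log2 difference of 0.66. The difference was larger than the pooled SD between a gene's probes. Krt16 was in the brightest of 4 equal classes of measured genes by signal, in which 0.669% were at least 1.5-fold higher. Its value lay between 0.66 and 0.74 under all 10 alternative settings, most of which could hardly move it. Settings on the dim filter or the choice of probe leave a bright gene with 1 probe unchanged. Other scalings, the series matrix values and leaving out areas away from its spot shift it only by a constant of the arrays. The gene has 1 probe, so no second probe checks it.

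Krt17, the type I keratin of developing hair follicles, outer root sheath and wounded epidermis, read 42.7 in the knockout and 37.6 in the wild type. Its log2 difference of 0.18 (1.14-fold higher) was smaller than that pooled SD. The robust SD of the log2 difference over all spots within 2-fold of its brightness was 0.11.

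Krt6a, the type II keratin of the companion layer and of wounded epidermis, read 0.172 in the knockout and 0.202 in the wild type. The log2 difference was −0.24 (1.18-fold lower), within the pooled SD between probes. The 2 probes named Krt6b, the tandem neighbour of Krt6a with nearly the same role, gave different values, and near-identical transcripts of the genes may share signal. The probe listed for Krt6b alone read 0.702 in the knockout and 0.344 in the wild type, a log2 difference of 1.03 (2.04-fold higher). The probe that lists the transcripts of both genes read 0.112 in the knockout and 0.103 in the wild type, a log2 difference of 0.12 (1.09-fold higher).

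The mean over both probes put Krt6b at a log2 difference of 0.58, or 1.49-fold higher, just under 1.5-fold. With the shared probe left out, a setting chosen after the values were seen, the gene stood at 1.03, and 1 of the 10 keratins was at least 2-fold apart instead of 0. Across all measured probes, 0.512% were at least 2-fold higher.

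The probes of Krt6b alone and Krt6a alone lay in rows 433 and 435, at the near edge of a band of rows whose dim spots showed a wider scatter of the log2 difference than other rows. This band ran from row 432 to row 477 of 532, and a second from row 98 to row 147. Both bands include a margin of 7 rows, in which rows 433 and 435 lie. The running robust SDs at rows 433 and 435 were 0.527 and 0.575, under the limit of 0.632 for a band and above the median of 0.422 over all rows. With the scattering areas left out, Krt6b kept only the shared probe and stood at 0.13, Krt6a had no value, and the median of the remaining stress keratins was 0.19. The rows near the probe of Krt6b alone behaved as follows. Of 199 spots within 8 rows of it and within 2-fold of its brightness, 0 stood 2-fold or more above wild type in the knockout. Over all measured probes the share was 0.512%, so a count of 0 among 199 spots says little. The median log2 difference of the 199 spots was 0.01 and their robust SD 0.23, against 0.23 for spots of that brightness on the whole array. The SD of its pixels over their mean was 0.148 on the knockout array and 0.145 on the wild type array.

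**Figure D2:**
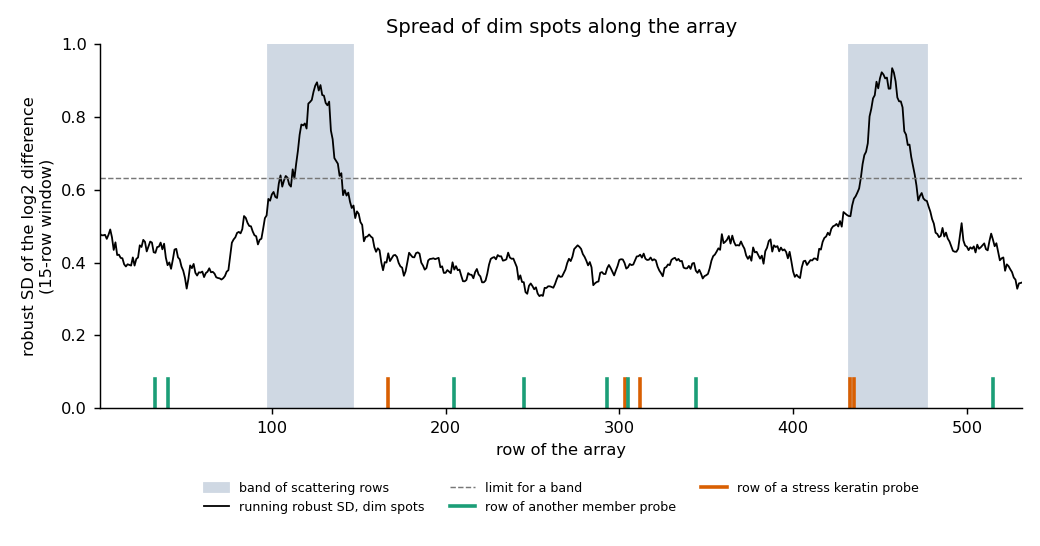
Robust SD of the log2 difference of dim spots in a running window of 15 rows, plotted against the row of the array. Shaded bands are rows above the dashed limit of 0.632, widened by 7 rows, and ticks mark the rows of the 13 keratin probes. Only the probes of Krt6a and of Krt6b alone lie in a band, near the edge at row 432.

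Among the simple epithelial keratins, Krt8 and Krt18 were level and Krt19 was lower in the knockout by less than 1.5-fold. Krt8, the type II partner, had 2 probes. One, listed under its RefSeq transcript, read 0.0554 in the knockout and 0.0513 in the wild type (log2 difference 0.11). The other, listed under full-length cDNA clones, read 0.308 in the knockout and 0.343 in the wild type (log2 difference −0.16). The gene's mean was −0.02, and its sign changed under 3 of the 10 alternative settings. Krt18, its type I partner, read 0.241 in the knockout and 0.255 in the wild type, a log2 difference of −0.08. Both members of this pair therefore differed by less than the pooled SD between probes.

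Krt19, a type I keratin of periderm, Merkel cells and part of the hair follicle, read 0.0754 in the knockout and 0.0999 in the wild type. The knockout signal was 1.33-fold lower (log2 difference −0.41), against a robust SD of 0.29 for spots of like brightness. Among the 8 Merkel cell markers examined, all were measured, their median was −0.08 and 0 were at least 1.5-fold apart (all measured genes: 8.41%). The summed relative signal of the markers was 3.14 in the knockout and 3.62 in the wild type. Such a sum adds levels of different probes, and most of this one and of its difference came from Chga, at 1.77 in the knockout and 2.22 in the wild type. Krt20, the keratin of Merkel cells, read 0.137 in both (log2 difference 0.01), Atoh1, their transcription factor, was at 0.21, Isl1 at −0.35 and Chga at −0.33. Of 6 markers of glandular and ductal epithelium, 5 were measured, 4 of them below 0 (all measured genes: 12930 of 22719). Their median was −0.26, and their summed signal was 1.18 in the knockout and 1.47 in the wild type. Cldn3 was the lowest at −0.61 and Aqp5 the highest at 0.07, and Muc1 was well above background in the wild type only. Aqp5 has 1 of its 2 probes in a scattering area and turned to −0.18 with those areas left out and to −0.0065 with normexp correction, so that all 5 were then below 0. The part of these cells in the values of Krt8, Krt18 and Krt19 was not tested.

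The mucosal pair did not stand alike. Krt13, the type I partner, gave nearly the same signal on both arrays with both of its probes. The first read 6.06 in the knockout and 6.02 in the wild type (log2 difference 0.01), and the second 0.2498 in the knockout and 0.242 in the wild type (0.05). The gene's log2 difference was 0.03. Krt4, its type II partner, read 0.0169 in the knockout and 0.0103 in the wild type, a log2 difference of 0.71 (1.64-fold higher), the highest of the 10 keratins. The Krt4 signal was dim, 32.5 intensity units in the knockout and 18.0 in the wild type, and the lowest signal among wild type probes well above background was 0.00563. In the dimmest of the 4 classes of measured genes, 4.89% were at least 1.5-fold higher, and spots of like brightness had a robust SD of 0.39. After normexp background correction, a model-based subtraction with 50 intensity units then added, Krt4 stood at 0.03. The added 50 units exceed both Krt4 signals and by themselves shrink differences of dim spots. The same constant is in every normexp value given here.

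Krt23 was the lowest of the 10 keratins. It read 14.0 in the knockout and 22.4 in the wild type, which is 1.61-fold lower in the knockout (log2 difference −0.68). The probe was bright, with pixel SDs of 0.0309 and 0.0250 of the mean in knockout and wild type. In the brightest of the 4 classes 2.5% were at least 1.5-fold lower, and the robust SD of spots of like brightness was 0.14. All 10 alternative settings gave a value between −0.68 and −0.63, but as for Krt16 most of them could hardly move it. The gene also has 1 probe.

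**Figure D3:**
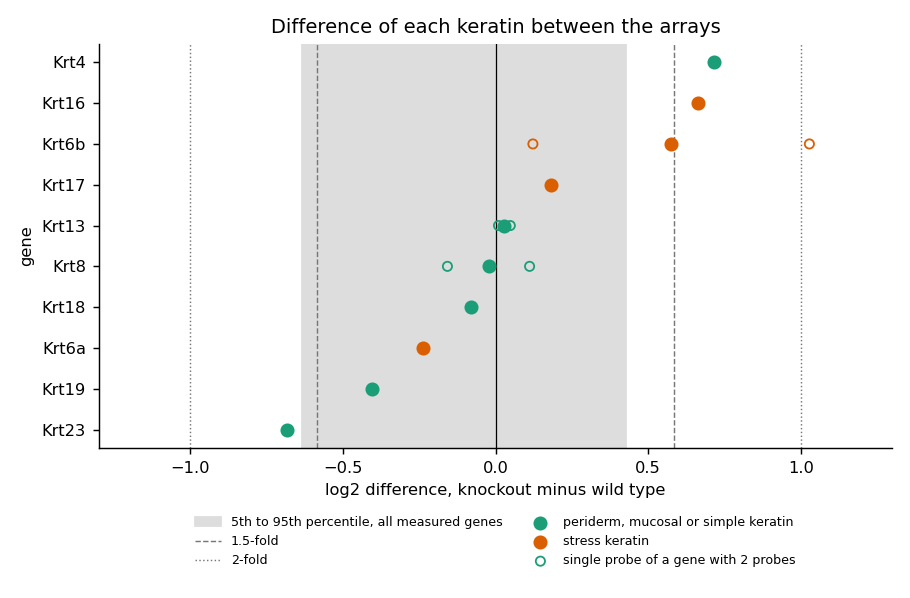
Log2 difference, knockout minus wild type, of each of the 10 keratins (filled points), with single probes as open points for the 3 genes with 2 probes. The grey area runs from the 5th to the 95th percentile of all measured genes (−0.64 to 0.43). Krt4, Krt16 and Krt6b lie above it and Krt23 below it, and none of the filled points reaches 2-fold.

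Set side by side, the stress keratins had a median log2 difference of 0.38 with 3 of 4 above 0, and the periderm, mucosal and simple keratins a median of −0.05 with 2 of 6 above 0. Of all 22719 measured genes, 9789 were above 0. The median of the second group changed sign under 1 of the 10 settings, quantile normalization, at 0.00. The difference of the medians was 0.43, and between 0.23 and 0.54 under the alternative settings, the lowest with the scattering rows left out. The values of the groups overlapped over most of their range, from −0.24 for Krt6a to 0.66 for Krt16 among stress keratins and from −0.68 for Krt23 to 0.71 for Krt4 among the others. Over all 10 keratins, 3 were at least 1.5-fold apart, Krt16 and Krt4 higher and Krt23 lower, against 8.41% of all measured genes either way. Krt6b was counted as at least 1.5-fold higher under 6 of the 10 alternative settings. By chain type, the 6 type I members had a median of −0.03 and the 4 type II members a median of 0.28, each with as many above 0 as below.

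**Figure D4:**
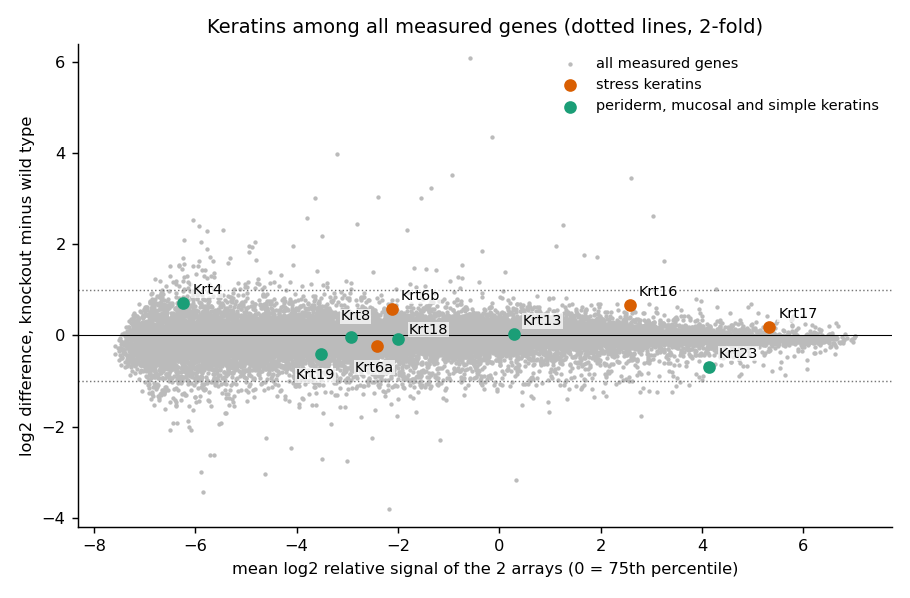
Log2 difference, knockout minus wild type, against the mean log2 relative signal of the arrays, for 22719 measured genes (grey) and the 10 keratins. The spread of all genes narrows towards bright signals, where Krt16 (0.66) and Krt23 (−0.68) lie near the rim of the grey cloud, and Krt4 (0.71) lies among dim genes with wide scatter.

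The members lie in the keratin clusters of chromosomes 11 and 15, and their neighbours there are given for comparison. Of the measured neighbours, Krt36 stood furthest from 0. Krt16 lies between Krt14 and Krt17, which stood at 0.05 and 0.18, against its own 0.66. Krt6a and Krt6b are next to each other, with Krt5 on the side of Krt6a at 0.14 and Gm5414 on the side of Krt6b at −0.51. Krt5 stood at 0.01 with the scattering areas left out, and Gm5414 was dim, at 0.0083 in the knockout and 0.0119 in the wild type. Krt8 and Krt18 are also neighbours, at −0.02 and −0.08. Krt4 lies next to Krt79, which was level at −0.03. Krt13 and Krt19 enclose Krt15, the basal and bulge keratin, which was 1.27-fold higher in the knockout, at 60.8 against 48.0 in the wild type. On the far side of Krt13 lies Krt36, 1.92-fold lower in the knockout at −0.94, and on that of Krt19 lies Krt9 at −0.18. Krt23 lies next to Krt20, at 0.01. The order of genes was taken from RefSeq on GRCm38.p6.

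Of 41 other measured keratins, 30 were below 0 and 11 above (all measured genes: 12930 below and 9789 above). The median log2 difference of the 41 was −0.44, and 18 were at least 1.5-fold lower (all measured genes: 6.05%). Among the 10 members 1 was at least 1.5-fold lower, and the median was 0.00. The difference between members and other keratins was not tested, and many of the other keratins on the array belong to the hair shaft and its sheaths. With the scattering rows left out, the other keratins had a median of −0.43 over 31 genes, 15 of them at least 1.5-fold lower. After normexp correction the median was −0.33 over 41 genes, 13 of them at least 1.5-fold lower.

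The 9 keratins of the epidermis between follicles had a median of 0.03, and 1, Krt2, was at least 1.5-fold apart (all measured genes: 8.41%), which after normexp correction stood at −0.51, or less than 1.5-fold. Krt15 at 0.34 and Krt5 at 0.14 were the highest. Krt2, a keratin of late differentiation, at −0.69 and Krt80 at −0.49, from 1 probe in a scattering area, were the lowest. The Krt2 value came from 1 dim probe, at 0.0439 in the knockout and 0.0710 in the wild type. Its other probe, at 0.0079 in the knockout and 0.0060 in the wild type, was well above background in the knockout only. Krt5 has 1 of its 2 probes in a scattering area, and with those areas left out it stood at 0.01, below Krt14 at 0.05. A list of 6 further keratins was drawn up as simple and mucosal, although it includes Krt12 of the cornea and the hair-type Krt84. Of the 6, 5 were measured with a median of 0.11. Krt12, the type I keratin of the cornea, was highest at 0.96 (1.94-fold higher), with 0.562 in the knockout and 0.289 in the wild type, and its 2 probes gave 0.95 and 0.96, with 1 of them in a band of scattering rows. Krt84 was at 0.58, Krt20 at 0.01 and Krt7 at −0.22. Krt84 was dim, at 0.0421 in the knockout and 0.0282 in the wild type, and stood at 0.28 after normexp correction. Krt76, a keratin of oral mucosa, was not well above background on either array.

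Genes known to switch on stress keratins, or to appear with them, were spread over a wide range. Of 20 such genes, 5 were at least 2-fold higher (all measured genes: 0.528%) and 1 lower (1.36%), and the median was 0.31. The 5 were the epidermal growth factor receptor ligands Ereg (log2 difference 1.85) and Hbegf (1.40), the envelope protein Sprr1b (1.76) and the AP-1 subunits Fos (1.73) and Fosl1 (1.11). The lower gene was Il1a, interleukin-1 alpha, at −1.43. It was dim, reading 0.0114 in the knockout and 0.0307 in the wild type, and after normexp correction 4 of the 20 were at least 2-fold higher and 0 lower, with Fosl1 at 0.78 and Il1a at −0.64. Next lowest was Il1f9, also called Il36g, at −0.30. The 1 spot of Il1f9 lay in a scattering area, as did 4 of the 9 spots of Fos, which stood at 1.75 with those areas left out. This list was chosen with earlier results of these data known.

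Of 11 regulators of periderm and of the switch from periderm to stratified epidermis, 1 was at least 2-fold higher (all measured genes: 0.528%). This was Ovol1, a zinc finger transcriptional repressor that promotes epidermal differentiation, which read 0.885 in the knockout and 0.361 in the wild type (2.45-fold higher). Grhl3, the grainyhead factor of barrier formation, followed at 0.63 with 3.82 in the knockout and 2.48 in the wild type. The lowest were Arhgap29 at −0.31 and Tfap2a at −0.25. The median of the list was 0.09. The list drawn up for partners that link keratins to desmosomes and other structures had a median of 0.04 over 11 genes. In it, 0 were at least 1.5-fold apart (all measured genes: 8.41%). It also holds Ktn1, Trip10 and Krtcap3, which are not known as keratin linkers, so its median is not that of linkers alone. Dst was highest at 0.47, followed by Tchp at 0.26, and Plec at −0.13 and Krtcap3 at −0.09 were lowest. Dst has 2 of its 4 probes in the areas that scatter, 1 of them at 1.94. With those areas left out Dst stood at 0.14, below Tchp at 0.27 and Eppk1 at 0.21, and Plec had no value.

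**Figure D5:**
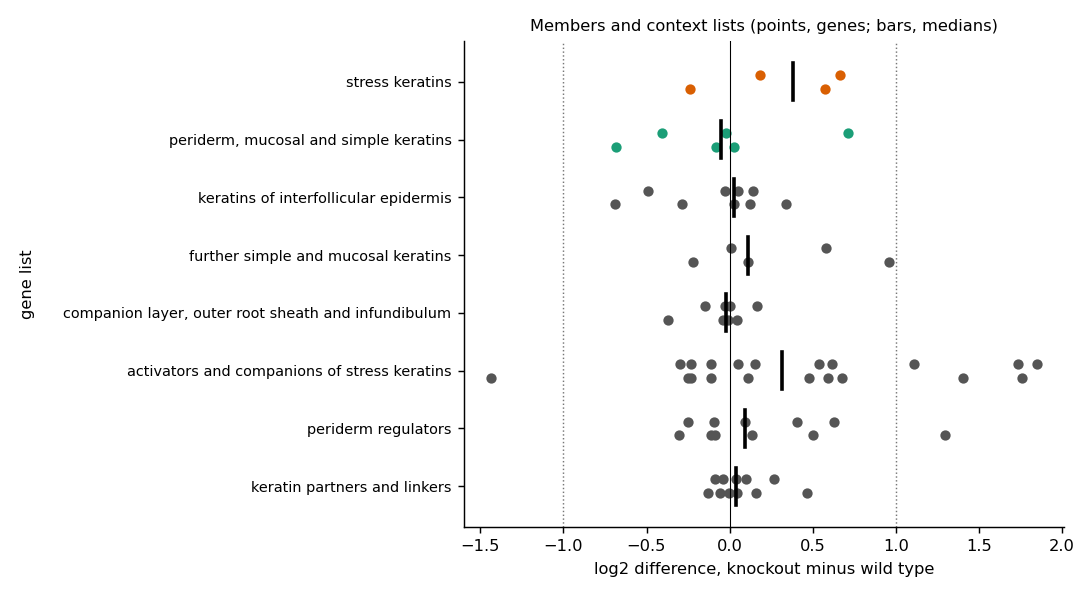
Log2 difference, knockout minus wild type, of each measured gene (points) in the stress keratins, the periderm, mucosal and simple keratins and 6 lists of related genes, with list medians as bars and dotted lines at 2-fold. The activators and companions of stress keratins spread furthest, from −1.43 to 1.85. The genes listed as keratin partners and linkers stay between −0.13 and 0.47. The value of 0.47 is that of Dst, which stood at 0.14 with the scattering areas left out.

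Genes of the companion layer, outer root sheath and infundibulum, where Krt6a, Krt16 and Krt17 are made in normal skin, were level. All 8 were measured, with a median of −0.02 and 0 at least 1.5-fold apart (all measured genes: 8.41%). They ran from Krt75 of the companion layer at −0.37 and Lhx2 at −0.15 to Krt42 at 0.05 and Sox9 at 0.17. The only probes of Krt75 and Krt79 lie in scattering areas. Keratinocyte markers were level as well. The 6 had a median of 0.01 and a summed relative signal of 263 in the knockout and 259 in the wild type. Fibroblast markers had a median of −0.03 over 6 genes, with a summed signal of 311 in the knockout and 319 in the wild type. All 6 skeletal muscle markers and all 6 adipocyte markers stood below 0 (all measured genes: 12930 of 22719). The muscle markers had a median of −0.91 and a summed signal of 76.7 in the knockout and 135 in the wild type. The adipocyte markers had a median of −0.71 and a summed signal of 49.3 in the knockout and 76.3 in the wild type. A 2-fold or larger decrease (all measured genes: 1.36%) was seen for Ckm, muscle creatine kinase, at −1.23, and for 2 adipocyte products. These were Cfd at −1.76 and Retn at −1.17. The lower muscle and adipocyte signal stood beside every keratin value above, and its part in those values was not tested.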

How the data were processed

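The data are 1-colour Agilent arrays of skin RNA, 1 for the knockout and 1 for the wild type, each a pool of 5 animals labelled from 200 ng of total RNA. Per the file headers, the authors' deposited intensity of each spot came from Agilent Feature Extraction 11.5.1.1, which subtracted background and corrected spatial trends within the array. The deposited series matrix holds that intensity over a constant, 2080 for the knockout array and 1906 for the wild type array. It is linear and not centred by gene, its medians are 0.0840 and 0.0855 in knockout and wild type, and the sources used here do not give the step that made it.

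Of 44397 spots, 1377 controls and 192 outliers were left out, and 0 were saturated. Spots of a probe were averaged on the log2 scale, and each array was scaled to the 75th percentile of its 39417 probes. Probes well above background made up 76.8% on the knockout array and 74.9% on the wild type array. A gene was the mean of its probes well above background on both arrays. Members were found by the gene name in the scanner files. Other probes were named by RefSeq accession (28325), symbol (2204) or synonym (174) from a table on GRCm38.p6, and 8714 kept the name in the files. Members and gene lists were chosen with earlier results of these data known. All 10 members are named, and of each list of related genes the 2 highest, the 2 lowest and any gene 2-fold apart. Some cell type markers (Krt20, Atoh1, Isl1, Chga, Cldn3, Aqp5, Muc1, Ckm, Cfd, Retn), neighbours in the clusters and Krt76 are named beyond this, after their values were seen. With 2 arrays no likeness of pattern between genes can be measured. The limits of the scattering rows (a running robust SD over 1.5 times the median of all rows, widened by 7 rows) were set after the data were seen. Positions where at least 30% of neighbouring spots were 2-fold apart the same way were left out with them. Calculations used Python 3.11.15, R 4.3.3 and limma 3.58.1, and were tested on simulated data. Precision is limited by there being 1 array per genotype.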

Additional observations from a re-analysis of the deposited data

How the results depend on the processing

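With 1 array per genotype no replicate could be left out. No paired analysis was possible because each genotype had 1 array. The 10 alternatives included normexp background correction with 50 units added, 2 other scalings, quantile and loess normalization and no filter on dim probes. They also included the brightest probe per gene, the series matrix values and the scattering areas left out. The last, added after seeing the data, left out the Krt6b probe shared with Krt6a. A value counts as moved when it shifted by more than 0.25, the pooled SD of a gene's probes. For a median the limit was that SD over the root of the number of genes (0.12 for stress keratins, 0.10 for the others, 0.16 for the difference), set after the values were seen. With the scattering areas left out, the stress median moved to 0.19 and the difference of the medians to 0.23, since Krt6a then had no value and Krt6b kept 1 probe. Neither moved under the other 9, and the median of the other keratins moved under none of the 10. Of the 10 keratins, Krt6b moved under 3 settings, to 1.03 with the brightest probe or without the shared probe and to 0.13 without the scattering areas, and Krt4 under 1, to 0.03 with normexp correction. The number of keratins at least 2-fold apart was 0, and 1 with the brightest probe per gene and 1 without the shared probe. The number at least 1.5-fold apart was 3, and between 2 and 4 under the alternatives. Dim signal limits Krt4 most, and Krt16, Krt17, Krt18, Krt19, Krt23, Krt4 and Krt6a each rest on 1 probe, so the settings on the choice of probe could not move them.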
